A study of Mus musculus with 9 samples.

Results

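Lef1, Satb1, Bach2, Myb, Id3, Bcl11b and Sox4 encode nuclear factors known from early lymphocyte development, and their transcripts were followed here in innate lymphocytes from the epithelium of the mouse small intestine. The 7 genes were chosen by symbol, each was carried by 1 row of the array table, and all 7 were measured among the 19938 genes tested. RNA came from NOD-SCID mice aged 8 to 10 weeks, a strain that lacks mature T and B cells. The sorted cells were CD3- CD45+ in every group, and the labels give no treatment. The 3 populations differed in surface phenotype: Ly49E+CD8aa+ cells, Ly49E+CD8aa- cells and Ly49E-CD8aa+ cells, each on 3 arrays named biological replicates in the labels. How many mice an array stands for, and whether replicates were separate mice, was not stated there, so p-values measure the spread between these arrays, which may in part be technical. Ly49E is an NK cell receptor encoded by Klra5, and CD8aa is a pair of CD8 alpha chains, the product of Cd8a.

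Lymphocyte progenitors pass through a stage in which a small set of factors opens or closes the programs of T cells, B cells and innate lymphocytes. LEF1 binds DNA through an HMG box and recruits beta-catenin or Groucho-type repressors, and SATB1 folds chromatin by binding AT-rich DNA. BACH2 represses effector genes, MYB sustains progenitor gene expression, and ID3 binds E proteins and keeps them from DNA. BCL11B commits thymocytes to the T lineage and also acts in some innate lymphoid cells, and SOX4 is an HMG-box factor of lymphoid progenitors.

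The values are log2 expression values from RMA, a method that corrects, normalizes and summarises the probes of a transcript on a relative scale. The means of the sort marker genes Klra5 and Cd8a were ordered as the gates. Klra5, a member of a family of similar sequences open to cross-hybridisation, had means of 11.40 and 11.43 in the Ly49E+ populations and 6.59 in Ly49E-CD8aa+. The mean of Cd8a was 12.55 and 12.58 in the CD8aa+ populations and 11.42 in Ly49E+CD8aa-. That last value is still far above the array medians of 5.76 to 5.82. Cd8b1, which encodes the CD8 beta chain, was instead highest in Ly49E+CD8aa- cells. Its log2 difference was -3.06 in Ly49E+CD8aa+ minus Ly49E+CD8aa- and 3.04 in Ly49E+CD8aa- minus Ly49E-CD8aa+. The mean of the CD45 gene Ptprc lay between 11.82 and 11.85 in all 3 populations. Itgae, which encodes the integrin chain that holds lymphocytes in the epithelium, had means between 11.91 and 12.25, and the markers of intraepithelial lymphocytes (7 of 8 measured) had mean log2 levels of 10.6 to 10.9 per array. Within that list Ccr9 (2.00) and Cd160 (0.86) were higher and Cd8a (-1.16) and Itgae (-0.34) lower in Ly49E+CD8aa- minus Ly49E-CD8aa+. In Ly49E+CD8aa+ minus Ly49E+CD8aa- Cd8a and Itgae were higher and Ccr9 lower. The Itgae calls were kept in 12 of 19 and 5 of 19 alternatives, in that order. Cd3e, whose protein was gated against at the cell surface, had means of 11.75 in Ly49E+CD8aa+ cells, 10.70 in Ly49E+CD8aa- cells and 11.67 in Ly49E-CD8aa+ cells.

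The promoters of Satb1 and Lef1 are shown because these were the members that passed the test together in a comparison. Each is the most upstream window of the gene in RefSeq, assembly GRCm38.p6, from 250 bases before the start to 50 after it. Capitals mark the E-box CANNTG, the kind of site that E proteins bind, on either strand.
Satb1, chr17:51833241-51833540, minus strand: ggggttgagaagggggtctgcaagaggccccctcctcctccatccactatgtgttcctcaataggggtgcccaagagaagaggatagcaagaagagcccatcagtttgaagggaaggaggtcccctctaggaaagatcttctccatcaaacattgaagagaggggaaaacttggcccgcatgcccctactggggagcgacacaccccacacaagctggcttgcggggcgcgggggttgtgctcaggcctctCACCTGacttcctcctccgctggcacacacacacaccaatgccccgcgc
Lef1, chr3:131110047-131110346, plus strand: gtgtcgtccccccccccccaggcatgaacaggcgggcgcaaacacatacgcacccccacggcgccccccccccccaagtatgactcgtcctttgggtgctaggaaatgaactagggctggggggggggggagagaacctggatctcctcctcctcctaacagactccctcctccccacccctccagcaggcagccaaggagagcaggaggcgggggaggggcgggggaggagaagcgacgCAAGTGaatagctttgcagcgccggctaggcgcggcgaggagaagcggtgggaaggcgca

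Each window held 1 E-box, as did 72.3% of all 32851 promoter windows of the same length with 1 or more. The TCF/LEF letters CTTTGA were in neither window and in 16.0% of all windows, and the Runx letters TGTGGT were in neither and in 16.8%. The Lef1 window is 67.3% G and C, against 59.0% in the Satb1 window. The most downstream of the 4 Lef1 windows in the table held CTTTGA at 2 places. These matches describe letters in the reference and bear on no binding measured here.

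Satb1 had the largest difference between populations among the 7 genes. Its arrays read 8.07, 8.80 and 8.98 in Ly49E+CD8aa- cells, 6.10, 5.81 and 5.64 in Ly49E+CD8aa+ cells and 6.08, 5.73 and 5.34 in Ly49E-CD8aa+ cells. All 3 Ly49E+CD8aa- arrays lay far above the other 6, and the CD8aa+ populations overlapped. Satb1 was higher in Ly49E+CD8aa- cells than in Ly49E-CD8aa+ cells by 2.90 (SE 0.254, limma adjusted p = 0.000301, n = 3 per population), or 7.46-fold. The difference ranked 27 from the top of 19938 genes. Satb1 was also lower in Ly49E+CD8aa+ cells than in Ly49E+CD8aa- cells, by a log2 difference of -2.77 (SE 0.254, limma adjusted p = 0.000459, n = 3 per population), or 6.81-fold. Both comparisons use the same Ly49E+CD8aa- arrays. Between the CD8aa+ populations the difference was 0.13, with a 95% confidence interval from -0.44 to 0.71, and did not pass.

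**Figure D1:**
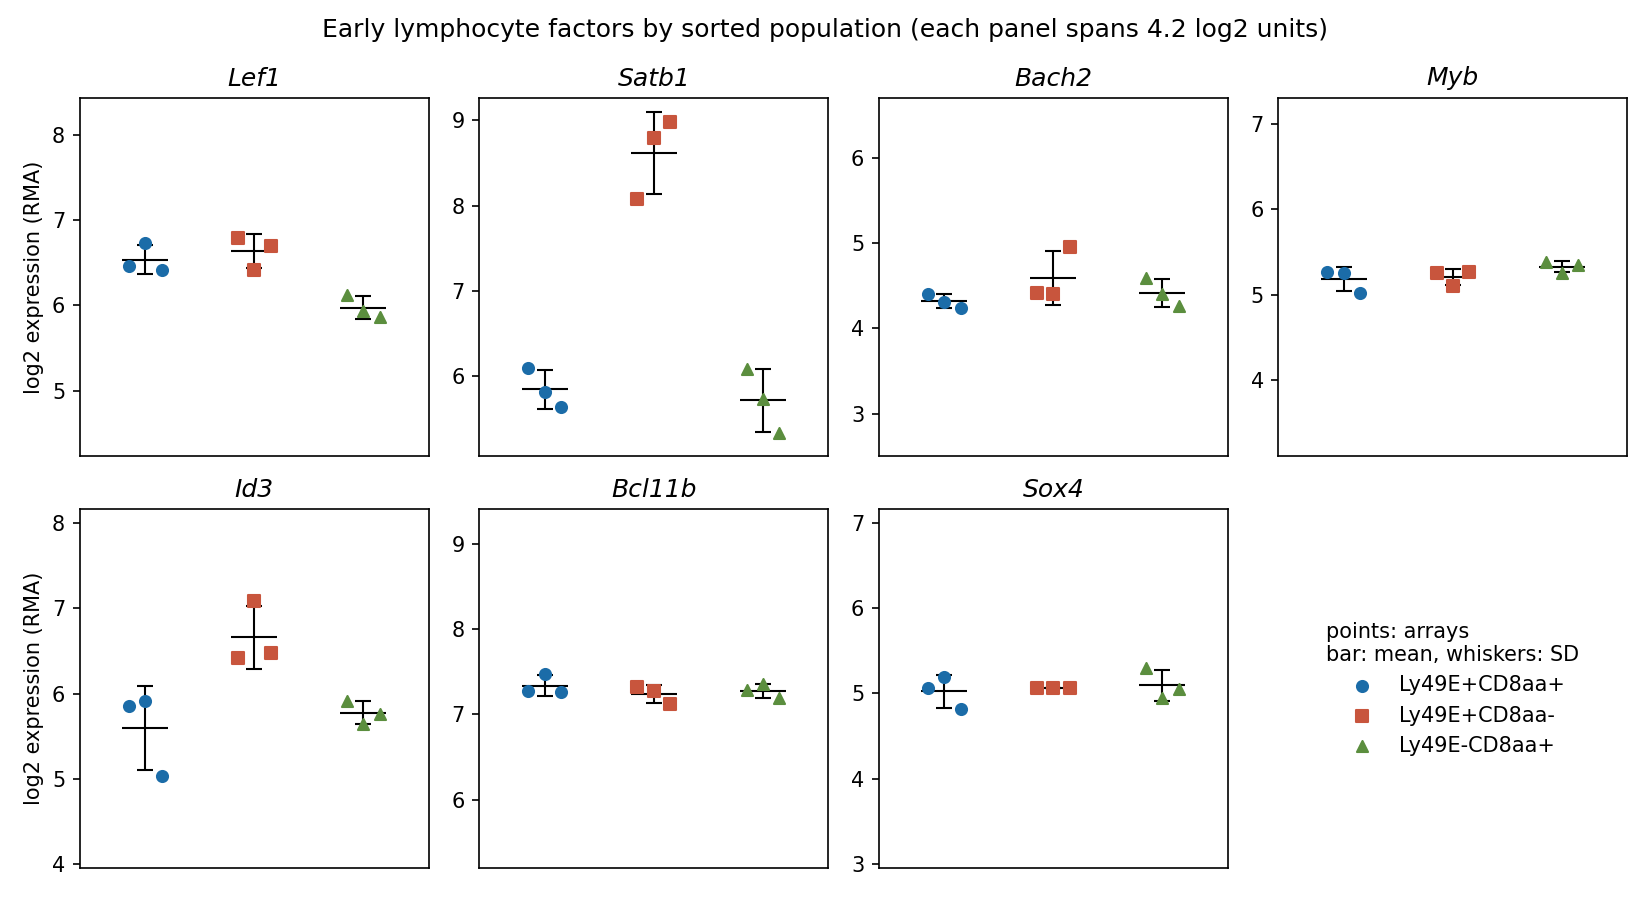
Log2 expression (RMA) of the 7 factors in each array of the 3 populations; points are arrays, bars the mean and whiskers the SD (n = 3), and every panel spans the same number of log2 units. Satb1 lies between 8.07 and 8.98 in Ly49E+CD8aa- and between 5.34 and 6.10 elsewhere, Lef1 is lowest in Ly49E-CD8aa+, and Bach2, Myb, Bcl11b and Sox4 have overlapping points.

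Lef1 had means of 6.63 in Ly49E+CD8aa- cells, 6.53 in Ly49E+CD8aa+ cells and 5.97 in Ly49E-CD8aa+ cells, a smaller range than that of Satb1. The Ly49E+CD8aa+ arrays read 6.46, 6.73 and 6.41 and the Ly49E+CD8aa- arrays 6.80, 6.41 and 6.69, while those of Ly49E-CD8aa+ read 6.13, 5.93 and 5.86. The Ly49E+ populations overlapped, and all 6 of their arrays lay above the 3 Ly49E-CD8aa+ arrays. Lef1 was higher in Ly49E+CD8aa- cells than in Ly49E-CD8aa+ cells by 0.66 (SE 0.124, limma adjusted p = 0.0271, n = 3 per population), or 1.58-fold. In Ly49E+CD8aa+ the mean was above that of Ly49E-CD8aa+ by 0.56 (SE 0.124; 95% confidence interval 0.28 to 0.84), which did not pass over all genes (limma adjusted p = 0.419, unadjusted p = 0.00141). The mean in Ly49E+CD8aa+ minus that in Ly49E+CD8aa- was -0.10, with an interval from -0.38 to 0.18.

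The Lef1 call between Ly49E+CD8aa- and Ly49E-CD8aa+ depended on the arrays, the rows and the model fitted. It was kept in 11 of 19 alternatives, with limma adjusted p from 0.0189 to 0.109 over all of them. Leaving out Ly49E+CD8aa- replicate 1 or 3 gave 0.104 and 0.109, leaving out Ly49E-CD8aa+ replicate 2 or 3 gave 0.108 in each case, and leaving out Ly49E+CD8aa+ replicate 1 gave 0.0531. With all arrays of the comparison kept it was also lost, at 0.0742 with those 6 arrays alone and at 0.0824 with all rows tested without collapsing. The replicate number as a block gave 0.051. The log2 difference itself stayed between 0.58 and 0.77. Satb1 passed in all 19 alternatives of this comparison (limma adjusted p from 0.000122 to 0.00769) and in all 19 of the comparison of Ly49E+CD8aa+ with Ly49E+CD8aa- (0.000201 to 0.00549).

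**Figure D2:**
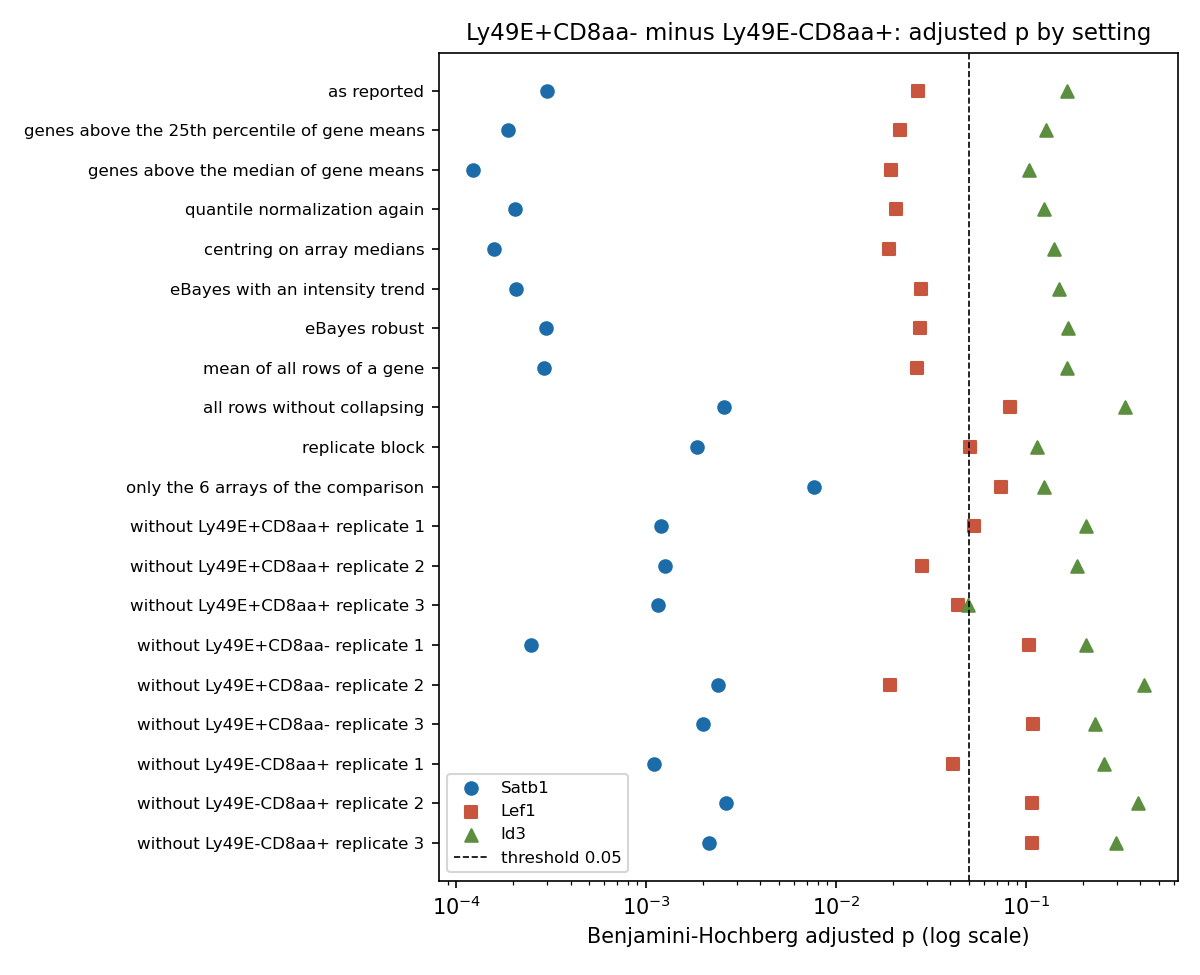
Benjamini-Hochberg adjusted p of limma (horizontal log axis) for Satb1, Lef1 and Id3 in Ly49E+CD8aa- minus Ly49E-CD8aa+, for the reported fit and 19 other settings (vertical axis); the dashed line is the threshold of 0.05. Satb1 stays left of the line throughout, Lef1 falls on either side, and Id3 crosses it only without Ly49E+CD8aa+ replicate 3 (0.0495).

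Id3, the antagonist of E proteins, had its highest mean in Ly49E+CD8aa- as well. The arrays read 6.41, 7.08 and 6.48 in Ly49E+CD8aa- cells, 5.85, 5.92 and 5.03 in Ly49E+CD8aa+ cells and 5.92, 5.65 and 5.76 in Ly49E-CD8aa+ cells. All 3 Ly49E+CD8aa- arrays lay above the other 6, and Ly49E+CD8aa+ replicate 3 lay below the rest. The log2 difference was -1.06 for Ly49E+CD8aa+ minus Ly49E+CD8aa- (SE 0.247; interval -1.61 to -0.50; limma adjusted p = 0.0873, n = 3 per population). For Ly49E+CD8aa- minus Ly49E-CD8aa+ it was 0.88 (SE 0.247; interval 0.32 to 1.44; limma adjusted p = 0.165, n = 3 per population). Neither passed over all genes. The latter passed without Ly49E+CD8aa+ replicate 3 (limma adjusted p = 0.0495), an array that enters it only through the shared estimate of the spread, with a range of 0.0495 to 0.418 over the alternatives.

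Bcl11b, the T lineage factor, differed little, with values of 7.28, 7.48 and 7.26 in Ly49E+CD8aa+ cells, 7.32, 7.28 and 7.12 in Ly49E+CD8aa- cells and 7.29, 7.35 and 7.19 in Ly49E-CD8aa+ cells. The 95% confidence intervals of its 3 differences lay between -0.23 and 0.29. For Myb, the progenitor factor, the arrays read 5.27, 5.25 and 5.03, then 5.25, 5.10 and 5.27, then 5.38, 5.25 and 5.35 in the same order of populations. Its populations overlapped in every comparison, and the intervals lay between -0.34 and 0.17.

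Bach2, the repressor of effector genes, read 4.40, 4.31 and 4.24 in Ly49E+CD8aa+ cells, 4.42, 4.40 and 4.95 in Ly49E+CD8aa- cells and 4.59, 4.40 and 4.26 in Ly49E-CD8aa+ cells. Ly49E+CD8aa- replicate 3 was the array that stood above the others, and the populations overlapped. Bach2 lay under the 25th percentile of all rows in 6 of 9 arrays, so a difference at this level may not have been measurable. Its intervals reached from -0.61 to 0.51. Sox4, the progenitor HMG-box factor, read 5.06, 5.19 and 4.81 in Ly49E+CD8aa+ cells, 5.07 in all 3 Ly49E+CD8aa- arrays, and 5.29, 4.94 and 5.05 in Ly49E-CD8aa+ cells. Identical values across arrays were frequent in this table, with at least 1 tie in 49.1% of rows, and 2.05% of rows had a single value in the 3 Ly49E+CD8aa- arrays. The SD of 0 for Sox4 is therefore not a measure of its precision. The intervals of Sox4 lay between -0.33 and 0.23. Bach2, Myb and Sox4 were below the array median in all 9 arrays.

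In all, 0 of the 7 genes were called between the CD8aa+ populations by limma, with 1 (Lef1) at an unadjusted p under 0.05, as were 4.18% of all genes. That comparison had 0.13% of all genes called, 0.0201% higher and 0.11% lower in Ly49E+CD8aa+ cells. Between the Ly49E+ populations 1 of the 7 was called, Satb1, where 1.7% of all genes were called, 0.476% higher and 1.22% lower in Ly49E+CD8aa+ cells, and 2 were at an unadjusted p under 0.05, as were 9.43% of all genes. Between Ly49E+CD8aa- and Ly49E-CD8aa+ cells 2 were called, Satb1 and Lef1, where 2.15% of all genes were called, 1.35% higher and 0.802% lower in Ly49E+CD8aa- cells, and 3 were at an unadjusted p under 0.05, as were 10.4% of all genes.

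Arrays did not overlap for 1 of the 7 between the CD8aa+ populations, Lef1, and for 6.25% of all genes, 2.88% higher and 3.38% lower in Ly49E+CD8aa+ cells. Between the Ly49E+ populations they did not overlap for 2, Satb1 and Id3, both lower in Ly49E+CD8aa+ cells, and for 12.9% of all genes, 7.41% higher and 5.52% lower. Between Ly49E+CD8aa- and Ly49E-CD8aa+ cells they did not overlap for 3, Satb1, Lef1 and Id3, all higher in Ly49E+CD8aa- cells, and for 12.7% of all genes, 5.29% higher and 7.45% lower. The median difference of the 7 in these comparisons, in the same order, was -0.07, -0.10 and 0.17, beside -0.000488, 0.03 and -0.02 over all genes. By the F test over the 3 populations Satb1 (limma adjusted p = 0.00039) and Lef1 (0.0478) passed, where 2.03% of all genes were called, and Id3 did not (0.14). Lef1 passed this test in 8 of 18 alternatives and was lost without any array other than Ly49E+CD8aa- replicate 2 (0.065 to 0.195).

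**Figure D3:**
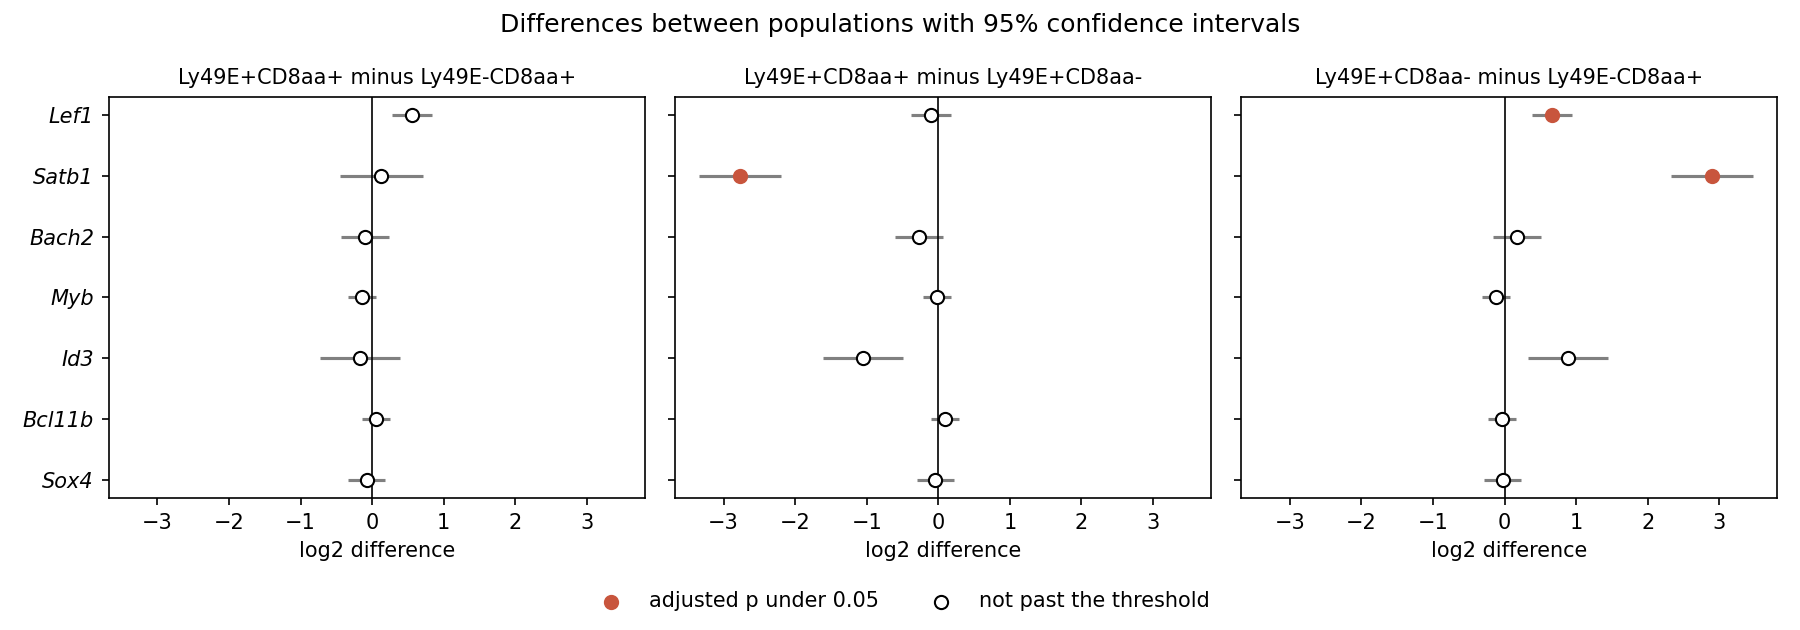
Log2 differences (horizontal axis) of the 7 factors in the 3 comparisons, with 95% confidence intervals from limma; filled points have an adjusted p under 0.05 over 19938 genes. Satb1 stands at -2.77 and 2.90 in the comparisons with Ly49E+CD8aa-, Lef1 passes at 0.66 in one of them, and Id3 lies away from 0 in both without passing.

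The arrays differed between populations in markers of other cells too, and their part in the values of the 7 genes was not tested. In RNA from a sorted population, fewer cells of a type and less RNA per cell cannot be told apart. Beside the counts in the lists below, limma called 0.13% of all genes in Ly49E+CD8aa+ minus Ly49E-CD8aa+. It called 1.7% in Ly49E+CD8aa+ minus Ly49E+CD8aa- and 2.15% in Ly49E+CD8aa- minus Ly49E-CD8aa+. NK cell and ILC1 markers (10 of 10 measured) had a mean log2 level per array of 9.10 to 9.22 in Ly49E+CD8aa-, 7.001 to 7.073 in Ly49E+CD8aa+ and 6.82 to 7.03 in Ly49E-CD8aa+. Of these, 6 were higher in Ly49E+CD8aa- cells than in Ly49E-CD8aa+ cells, among them Ncr1, an activating receptor gene, with means of 9.69 and 4.40. Klrb1c, Tbx21, Itga1 and Tnfsf10 were not called in that comparison. Between the CD8aa+ populations 1 of the 10 was called, Cd226, on the higher side in Ly49E+CD8aa+ cells, a call lost without any array other than Ly49E-CD8aa+ replicate 2 (limma adjusted p from 0.0671 to 0.162). Markers of ILC3 (6 of 9 measured) had levels of 7.34 to 7.62, 5.68 to 5.84 and 5.61 to 5.62 in the same order, and 4 of the 6 were higher in Ly49E+CD8aa- than in either other population. Both lists thus moved with Satb1. Markers of lymphoid progenitors (9 of 9 measured) ranged from 5.73 to 5.93 in Ly49E+CD8aa-, 4.90 to 4.95 in Ly49E+CD8aa+ and 5.18 to 5.49 in Ly49E-CD8aa+. Their called members in Ly49E+CD8aa- minus Ly49E-CD8aa+ were Il7r (3.92), Cd93 and Kit on the higher side and Ly6d on the lower side. In Ly49E+CD8aa+ minus Ly49E-CD8aa+ Il7r and Ly6d were lower, and in Ly49E+CD8aa+ minus Ly49E+CD8aa- Il7r, Cd93 and Kit were. The Il7r call between the CD8aa+ populations was lost without any array other than Ly49E-CD8aa+ replicate 2 (limma adjusted p from 0.0647 to 0.162). The recombination genes Rag1 and Rag2, which define lymphoid progenitors, had means from 3.80 to 3.90 and from 3.29 to 3.38 and did not pass in any comparison. These means lie under the 25th percentile of the arrays (4.4 to 4.47), so a difference may not have been measurable.

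Markers of plasmacytoid dendritic cells (9 of 10 measured) moved with the low Lef1 values of Ly49E-CD8aa+. Their mean level per array was 7.17 to 7.77 in Ly49E-CD8aa+, 6.11 to 6.19 in Ly49E+CD8aa+ and 6.17 to 6.25 in Ly49E+CD8aa-, and 6 of the 9 were lower in each Ly49E+ population than in Ly49E-CD8aa+. Siglech, a surface lectin gene of these cells, had means of 7.51, 5.54 and 5.65 in that order. The measured markers Bst2, Irf8 and Tcf4 were not called in any comparison. The 6 calls between the CD8aa+ populations became 0 with the 6 arrays of that comparison alone. There Pld4 was lost without any Ly49E+ array or Ly49E-CD8aa+ replicate 3 (limma adjusted p from 0.0692 to 0.201), and Cd209d without any Ly49E+CD8aa+ array or Ly49E+CD8aa- replicate 1 or 2 (0.0509 to 0.101). Klra17 was lost there without Ly49E+CD8aa+ replicate 1 or 2, Ly49E+CD8aa- replicate 2 or Ly49E-CD8aa+ replicate 1 (0.0504 to 0.101). In Ly49E+CD8aa- minus Ly49E-CD8aa+ it was lost without Ly49E+CD8aa- replicate 1 or 3 or Ly49E-CD8aa+ replicate 1 or 2 (0.0515 to 0.0787). Macrophage and monocyte markers (9 of 9 measured) were at 5.93 to 6.25, 5.29 to 5.32 and 5.10 to 5.19. Of these, 3 were called lower in each Ly49E+ population, Cybb, Cd180 and Mpeg1. The markers Cd68, Csf1r, Adgre1, Lyz2, Itgam and Cd14 were not called in any comparison. Mpeg1 was lost between the CD8aa+ populations without any Ly49E+CD8aa+ array, Ly49E+CD8aa- replicate 1 or 2, or Ly49E-CD8aa+ replicate 1 (limma adjusted p from 0.0573 to 0.101). Proliferation markers (9 of 10) were at 6.35 to 6.54, 6.43 to 6.48 and 6.42 to 6.72, and 0 of them passed by limma in any comparison. Enterocyte markers (9 of 9) were at 8.64 to 9.49, 9.01 to 9.54 and 8.75 to 9.61 with 0 called between populations. They differed within populations. Apoa1 read 11.50, 11.55 and 11.75 in the replicate 1 arrays and 10.76 to 11.17 in the rest. Apoa4 read 11.37, 11.09 and 11.33 in the replicate 1 arrays and 10.26 to 10.65 in the rest. The part of enterocyte RNA in the values was not tested. B and plasma cell markers (8 of 9) were at 5.01 to 5.15, 4.93 to 5.07 and 4.94 to 5.06 in the same order. Blnk was lower in each Ly49E+ population, and Sdc1 was higher in Ly49E+CD8aa- cells than in either other population. Between the CD8aa+ populations Blnk was lost without any Ly49E+ array or Ly49E-CD8aa+ replicate 1 (limma adjusted p from 0.0558 to 0.132). Between the Ly49E+ populations Sdc1 was lost without any array other than Ly49E+CD8aa- replicate 2 or Ly49E-CD8aa+ replicate 1 (0.0521 to 0.0973).

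Relatives of the 7 factors by sequence differed little, with 1 exception. Of 11 measured genes (of 12 listed), 0 passed by limma between the CD8aa+ populations or between the Ly49E+ populations (0.13% and 1.7% of all genes). In Ly49E+CD8aa- minus Ly49E-CD8aa+ 1 passed, on the lower side, beside 2.15% of all genes. The gene was Bcl11a, the relative of Bcl11b that acts in B cells and plasmacytoid dendritic cells. Its arrays read 6.74, 6.47 and 6.20 in Ly49E-CD8aa+ cells, 5.60, 5.73 and 5.83 in Ly49E+CD8aa+ cells and 5.56, 5.82 and 5.83 in Ly49E+CD8aa- cells. All 3 Ly49E-CD8aa+ arrays lay above the other 6, the reverse of Lef1. The log2 difference was -0.74 (SE 0.137, limma adjusted p = 0.0263, n = 3 per population) for Ly49E+CD8aa- minus Ly49E-CD8aa+. That call was lost without Ly49E+CD8aa+ replicate 2, any Ly49E+CD8aa- array, or Ly49E-CD8aa+ replicate 1 or 2 (limma adjusted p from 0.0523 to 0.101). The difference was -0.75 for Ly49E+CD8aa+ minus Ly49E-CD8aa+, which did not pass (limma adjusted p = 0.168). The plasmacytoid dendritic cell markers given above moved with it.

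Id2, the main E protein antagonist of innate lymphoid cells and a relative of Id3, had means of 10.53 ± 0.102 in Ly49E+CD8aa+ cells, 10.77 ± 0.114 in Ly49E+CD8aa- cells and 10.31 ± 0.175 in Ly49E-CD8aa+ cells (SD, n = 3). The difference of 0.45 between Ly49E+CD8aa- and Ly49E-CD8aa+ did not pass (limma adjusted p = 0.0691, range 0.026 to 0.221 over the alternatives). Tcf7l1 and Tcf7l2, relatives of Lef1, had means of 5.72 to 5.82 and 6.34 to 6.55 over the populations. Bach1 ranged from 7.03 to 7.11 in its means, Mybl1 from 4.50 to 4.72, Mybl2 from 6.21 to 6.36, Id1 from 5.20 to 5.49 and Id4 from 5.98 to 6.01. The Sox4 relatives Sox11 and Sox12 had means of 4.13 to 4.28 and 5.49 to 5.72. None of these 9 genes passed in any comparison. The means of Sox11 lie under the 25th percentile of the arrays (4.4 to 4.47), so a difference may not have been measurable.

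**Figure D4:**
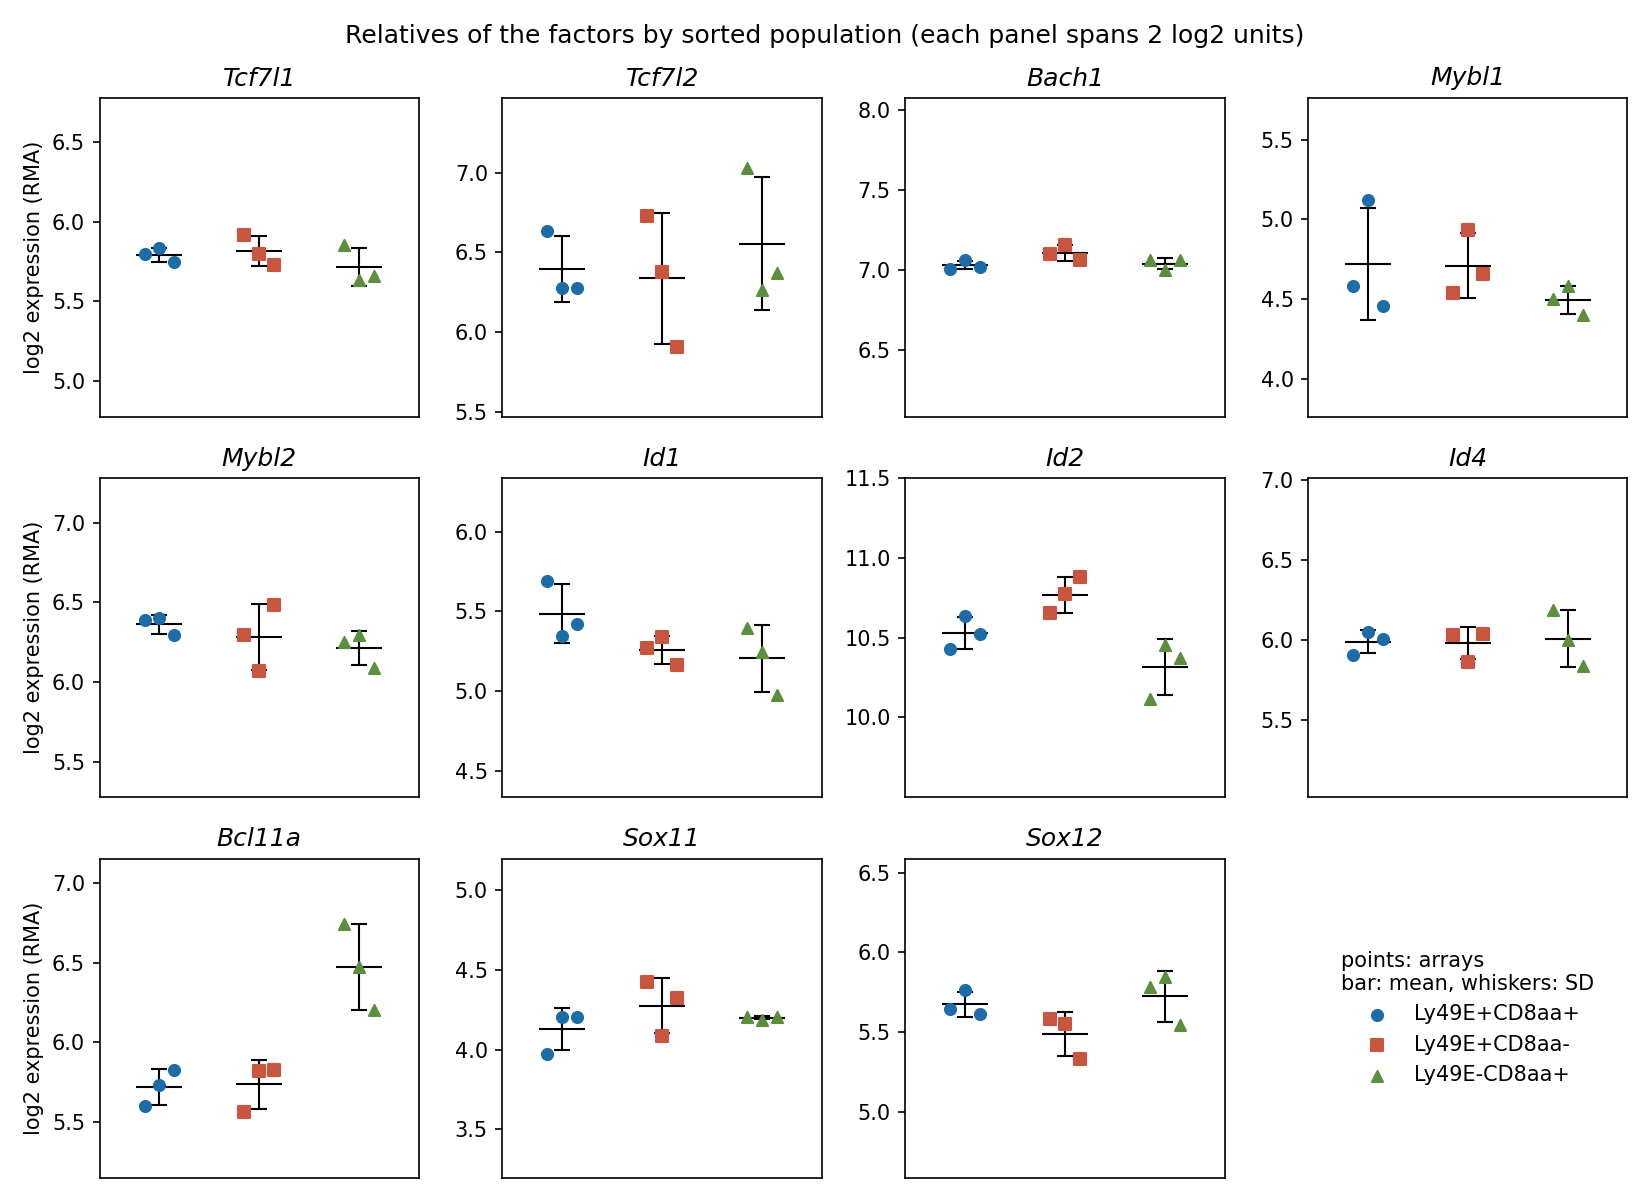
Log2 expression (RMA) of 11 relatives of the factors in each array of the 3 populations; points are arrays, bars the mean and whiskers the SD (n = 3), and every panel spans the same number of log2 units. Bcl11a is at 6.20 to 6.74 in Ly49E-CD8aa+ and at 5.56 to 5.83 elsewhere, and Id2 has its highest mean, 10.77, in Ly49E+CD8aa-.

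Partners and targets of TCF/LEF factors in the Wnt pathway stayed close together. Of 27 measured genes, 0 were called by limma in the comparisons of Ly49E+CD8aa+ with Ly49E-CD8aa+ and with Ly49E+CD8aa- (0.13% and 1.7% of all genes). In Ly49E+CD8aa- minus Ly49E-CD8aa+ the median difference was -0.03 beside -0.02 over all genes, and 1 gene was called, on the higher side, beside 2.15% of all genes. That gene was Lrp5, a Wnt coreceptor, with a difference of 0.37 (SE 0.0643, limma adjusted p = 0.0175, n = 3 per population) and means of 6.47 and 6.09. Its call was lost without Ly49E+CD8aa- replicate 2 or 3 or Ly49E-CD8aa+ replicate 1 or 2 (limma adjusted p from 0.0559 to 0.0739). Axin2, a feedback inhibitor widely used as a readout of Wnt signalling, had means of 6.67 in Ly49E+CD8aa+ cells, 6.70 in Ly49E+CD8aa- cells and 6.56 in Ly49E-CD8aa+ cells, and did not pass. Ctnnb1, which encodes beta-catenin, had means from 8.63 to 8.66, and Tle4, a Groucho-type corepressor, from 8.42 to 8.49.

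Among E proteins and their antagonists (11 measured), the 1 called gene was Lyl1, a basic helix-loop-helix partner of E proteins in progenitors. Its means were 8.01 ± 0.133 in Ly49E+CD8aa+ cells, 7.43 ± 0.0962 in Ly49E+CD8aa- cells and 8.35 ± 0.173 in Ly49E-CD8aa+ cells (SD, n = 3). It was lower in Ly49E+CD8aa- cells than in Ly49E-CD8aa+ cells by a log2 difference of -0.91 (SE 0.105, limma adjusted p = 0.00175, n = 3 per population), and higher in Ly49E+CD8aa+ cells than in Ly49E+CD8aa- cells by 0.58 (limma adjusted p = 0.0265). The latter was lost without any of the Ly49E+ arrays or without Ly49E-CD8aa+ replicate 1 (limma adjusted p from 0.0505 to 0.106). The E protein genes Tcf3 and Tcf12 had means of 7.26 to 7.32 and 9.72 to 9.81. Tcf4, an E protein gene of plasmacytoid dendritic cells, had means of 8.13, 8.14 and 8.49, and its difference of -0.35 in Ly49E+CD8aa- minus Ly49E-CD8aa+ did not pass (limma adjusted p = 0.112).

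Genes that act with or against BACH2 (9 measured) had 1 called higher and 1 called lower gene in both comparisons with Ly49E+CD8aa-, and 0 by limma between the CD8aa+ populations. Prdm1, which encodes the effector factor BLIMP1, had means of 9.73 in Ly49E+CD8aa+ cells, 9.22 in Ly49E+CD8aa- cells and 9.75 in Ly49E-CD8aa+ cells. It was lower in Ly49E+CD8aa- cells than in Ly49E-CD8aa+ cells by a log2 difference of -0.53 (SE 0.0806, limma adjusted p = 0.00935, n = 3 per population), in all 19 alternatives. Its call between the Ly49E+ populations was lost without Ly49E+CD8aa+ replicate 2 or Ly49E+CD8aa- replicate 2 or 3 (limma adjusted p from 0.0522 to 0.0598). Prdm1 and Satb1 thus differed in opposite directions. Maff, which encodes a small MAF protein, was higher in Ly49E+CD8aa- cells than in Ly49E-CD8aa+ cells by 1.16 (SE 0.141), with means of 7.54 and 6.39.

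Of other early lymphoid factors (34 measured), limma called 0 in Ly49E+CD8aa+ minus Ly49E-CD8aa+, where 0.13% of all genes were called. It called 1 in Ly49E+CD8aa+ minus Ly49E+CD8aa- (1.7% of all genes) and 2 in Ly49E+CD8aa- minus Ly49E-CD8aa+ (2.15% of all genes). The 1 between the Ly49E+ populations was Gata3 (-0.51), lost without any Ly49E+ array or Ly49E-CD8aa+ replicate 2 (limma adjusted p from 0.062 to 0.14). Gata3, a factor of T cells and innate lymphoid cells, was higher in Ly49E+CD8aa- cells than in Ly49E-CD8aa+ cells by 0.47 (SE 0.0985, limma adjusted p = 0.0456, n = 3 per population). That call was lost without any 1 of the 9 arrays (limma adjusted p from 0.0612 to 0.17). Mef2c, a factor of early lymphoid and B cells, was lower by a log2 difference of -0.58 (SE 0.101, limma adjusted p = 0.019), a call lost without Ly49E+CD8aa- replicate 1 or 3 or Ly49E-CD8aa+ replicate 2 (0.0617 to 0.08).

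Genes of naive and memory lymphocytes (20 measured of 21) included some that moved with Satb1. In Ly49E+CD8aa- minus Ly49E-CD8aa+, 6 were higher and 1 lower, with a median of 0.09 beside -0.02 over all genes. The higher ones with the largest differences were Il7r, the IL-7 receptor gene (3.92), the T-box factor gene Eomes (2.57), Trib2, a pseudokinase gene (0.99), and Nsg2 (0.94). The lists overlap, since Il7r is also among the lymphoid progenitor markers and Eomes among the NK cell and ILC1 markers above. Nsg2 lost its call without any CD8aa+ array or without Ly49E+CD8aa- replicate 3 (limma adjusted p from 0.0836 to 0.169). Bcl2, the survival gene, was the lower one (-0.34), and the count of lower genes became 0 without any CD8aa+ array or without Ly49E+CD8aa- replicate 1. In Ly49E+CD8aa+ minus Ly49E+CD8aa-, 3 were lower, Il7r (-5.44), Eomes (-2.83) and Trib2 (-1.22), and between the CD8aa+ populations Il7r was lower (-1.52). The last call was lost without any array other than Ly49E-CD8aa+ replicate 2 (limma adjusted p from 0.0647 to 0.162).

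Genes of the T lineage (17 measured of 19) went both ways. In Ly49E+CD8aa- minus Ly49E-CD8aa+, 6 were higher, with Thy1 (3.89), Cd8b1 (3.04), Cd2 (2.41) and Cd28 (2.36) in front, and 2 were lower, Cd8a (-1.16) and Cd3e (-0.98). Cd3e lost its call without any array other than Ly49E+CD8aa- replicate 1 (limma adjusted p from 0.0623 to 0.131). In Ly49E+CD8aa+ minus Ly49E+CD8aa-, 3 were higher and 5 lower, and 0 were called by limma between the CD8aa+ populations. Cd3e, 1 of the 3, was again lost without any array other than Ly49E+CD8aa- replicate 1 (limma adjusted p from 0.051 to 0.11). Ptcra, which encodes the pre-T cell receptor alpha chain, had means from 5.99 to 6.24 and did not pass in any comparison. Effector genes (12 measured) had 1 higher, Klrg1, an inhibitory receptor gene (1.36), and 2 lower in Ly49E+CD8aa- cells than in Ly49E-CD8aa+ cells, the perforin gene Prf1 (-0.76) and Prdm1. In Ly49E+CD8aa+ minus Ly49E+CD8aa- Prf1 (0.58) and Prdm1 (0.51) were higher and Klrg1 (-1.09) lower. There the Prf1 and Klrg1 calls were each kept in 14 of 19 alternatives. Between the CD8aa+ populations limma called 0 effector genes.

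The genes most like Satb1 over the 9 arrays, among the other genes of the 405 called by the F test, were Tpm4, a tropomyosin gene, Ltb, which encodes lymphotoxin beta, and Klrc3, a gene of the NKG2 family, with Pearson r of 0.988, 0.985 and 0.984. Ltb had means of 9.74 in Ly49E+CD8aa- cells, 7.87 in Ly49E+CD8aa+ cells and 7.67 in Ly49E-CD8aa+ cells. Those most like Lef1 were Klra5, Klra3 and Eya2, with r of 0.883, 0.811 and 0.810 over the same arrays. Klra3 belongs with Klra5 to the Ly49 family and is open to cross-hybridisation. Between the members themselves r over the 9 arrays was 0.859 for Id3 and Satb1 and 0.567 for Satb1 and Lef1. All of these correlations share the arrays and the population means, and they are given as descriptions.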

How the data were processed

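Total RNA was measured on 9 Affymetrix Mouse Gene 1.0 ST arrays. The deposited values were log2 expression values made by the authors with RMA, per the submitters' processing notes. Version, build and annotation were not given in the sources used here, and that the scale is log2 was taken from the range of the values. Of 35556 rows, 21789 had 1 gene symbol in the platform annotation, and 21698 of these were matched to current records by identifier. The brightest row stood for a gene with several, which left 19938 genes. No filter on dim rows was used, and detection calls were not used. The array medians were 5.76 to 5.82. The number of arrays limits the precision, with a median SE of a difference of 0.0976.

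All 9 arrays were fitted with limma 3.58.1 in R 4.3.3, with a mean per population and empirical Bayes moderation. Tests were 2-sided, adjusted by Benjamini-Hochberg over all genes, with a threshold of 0.05, and the script was tested on simulated data. The members and gene lists were chosen with earlier results of these data known. Named genes were the members, their relatives, up to 4 called genes per list and comparison, and for each called member the 3 genes most correlated with it; other genes named (for their role, as defining markers, or to complete a count) were chosen after their values were seen. Sequences come from RefSeq (GRCm38.p6), where all 7 members matched. Alternatives were 2 filters on dim genes, 2 scalings, 2 variance models, 2 row choices, the 6 arrays of a comparison alone, the replicate number as a block, and leaving out each array. A further gene that the choice of members sets apart was not analysed here.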

Additional observations from a re-analysis of the deposited data

How the results depend on the processing

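Over the named genes no called difference changed direction in any alternative. The 2 calls among the 7 members in Ly49E+CD8aa- minus Ly49E-CD8aa+ became 1 with all rows tested without collapsing, with the 6 arrays of the comparison alone and with the replicate block, and 1 to 3 when an array was left out. The 2 calls of the F test became 1 with all rows tested and with the replicate block, and 1 to 2 when an array was left out. In each case of 1 it was Satb1. Over all genes, the 4 higher and 22 lower calls of Ly49E+CD8aa+ minus Ly49E-CD8aa+ became 10 and 10 with all rows tested and 0 and 0 with 6 arrays (limma, 695 at an unadjusted p under 0.05). The 22 became 11 above the median of gene means and 14 with the replicate block. Leaving out an array gave 1 to 4 higher and 4 to 28 lower. The 95 higher calls of Ly49E+CD8aa+ minus Ly49E+CD8aa- became 59 with all rows, 62 with 6 arrays and 55 to 87 without an array. The 160 lower calls of Ly49E+CD8aa- minus Ly49E-CD8aa+ became 99, 78 and 82 to 130 in the same order, and the 405 of the F test 248 to 332 without an array. Beyond the smaller number of samples or larger number of rows, the cause was not tested.

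The reported fit did not pair the arrays by replicate number. The correlation of same-numbered deviations ran from -0.06 to 0.22 and was over 0.1 in 4 of 9 pairs. Between replicate 1 arrays it was 0.172, 0.222 and 0.127. Between a replicate 1 array and an array of another number it was below 0 throughout (-0.169 to -0.0222). Whether the replicate 1 arrays share a source of variation was not tested. With the replicate number as a block, Lef1 had a limma adjusted p of 0.051 and Satb1 of 0.00186 in Ly49E+CD8aa- minus Ly49E-CD8aa+. In the F test with that block the limma adjusted p of Lef1 was 0.0881. Of 90 calls of named genes, 59 passed in every alternative run. Bach2 was removed by both filters on dim genes, and Myb and Sox4 by the stricter one.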

Other observations

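Within Ly49E+CD8aa-, Satb1 read 8.07 in replicate 1 and 8.80 and 8.98 in replicates 2 and 3, and Id3 read 7.08 in replicate 2 and 6.41 and 6.48 in replicates 1 and 3. The array with the highest Satb1 value, replicate 3, was also the array with the highest Bach2 value, 4.95. Dntt, the template-independent polymerase gene of lymphoid progenitors, had means of 3.87 in Ly49E+CD8aa+ cells, 3.91 in Ly49E+CD8aa- cells and 4.40 in Ly49E-CD8aa+ cells. Its log2 difference of -0.49 in Ly49E+CD8aa- minus Ly49E-CD8aa+ did not pass (limma adjusted p = 0.124). The Dntt means lie at or under the 25th percentile of the arrays (4.4 to 4.47), so a difference may not have been measurable. Flt3, a cytokine receptor gene of progenitors and dendritic cells, had means of 5.02, 5.06 and 5.59 in the same order of populations.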
